A study of Komagataella pastoris with 3 samples.

Results

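The genes described here encode the enzymes with which the methylotrophic yeast Pichia pastoris oxidises methanol and takes its carbon into metabolism. They are alcohol oxidases 1 and 2 (AOX1, AOX2), catalase (CTA1), dihydroxyacetone synthases 1 and 2 (DAS1, DAS2) and dihydroxyacetone kinase (DAK1). They were chosen by locus tag, as PAS_chr4_0821 (AOX1), PAS_chr4_0152 (AOX2), PAS_chr2-2_0131 (CTA1), PAS_chr3_0832 (DAS1), PAS_chr3_0834 (DAS2) and PAS_chr3_0841 (DAK1), and are 6 of the 5040 genes in the deposited table. The table holds tags without names, so the data themselves offer no check of these identities. By their tags AOX1 and AOX2 lie on chromosome 4, CTA1 on chromosome 2, and DAS1, DAS2 and DAK1 on chromosome 3.

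In cells growing on methanol, alcohol oxidase works in peroxisomes, where it turns methanol into formaldehyde and hydrogen peroxide, and catalase breaks the peroxide down. Dihydroxyacetone synthase, also peroxisomal, joins formaldehyde to a sugar phosphate and so yields dihydroxyacetone, which dihydroxyacetone kinase phosphorylates in the cytosol. AOX1 supplies most alcohol oxidase in such cells and AOX2 a minor part. Transcription of these genes is known to be repressed by glucose, released to different degrees when glucose runs low (derepression), and fully induced by methanol. Catalase is also needed wherever peroxisomes make peroxide, for example in fatty acid oxidation.

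The cells were wild-type Pichia pastoris GS115 in YPD, a rich medium with glucose as its sugar and no added methanol. They were harvested for RNA sequencing at 24, 36 or 48 h, and culture time is the only difference between groups that the labels describe. The sample titles also carry the codes D1 (24 h), S1 (36 h) and S2 (48 h), whose meaning they do not give. Any further difference behind these codes cannot be told apart from culture time. There was 1 library per time point, 3 in all, and the labels do not say whether they came from the same flask. Levels are FPKM, a fragment count scaled to the length of the gene and to the fragments mapped in its library, so that levels of different genes can be compared per length. No value therefore has a replicate error, no test across samples was possible, and each difference below is one between single libraries whose sequencing depth is unknown. The question was how far messenger RNA of methanol enzymes appears in a glucose culture without methanol. A level is also an average over the culture, so more cells with a transcript and more transcript per cell cannot be told apart. The labels give no glucose concentration at any harvest, so culture time and the state of the medium cannot be told apart.

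All 6 genes had their lowest level at 24 h and their highest at 48 h, and none was lower at 36 h than at 24 h. Their summed level was 384 FPKM after 24 h, 3352 after 36 h and 10102 after 48 h. This was 0.044% of all FPKM in the 24 h library, 0.427% at 36 h and 1.33% at 48 h, a share that no rescaling of libraries changes. Their median level was 24.5 FPKM after 24 h, 51.3 after 36 h and 705 after 48 h, while the median of all genes was 54.3, 48.2 and 51.4 FPKM. CTA1 made up 23.8% of the summed level after 24 h, 49.3% after 36 h and 66.0% after 48 h, and without it the other 5 genes held 0.0335%, 0.216% and 0.451% of all FPKM.

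**Figure D1:**
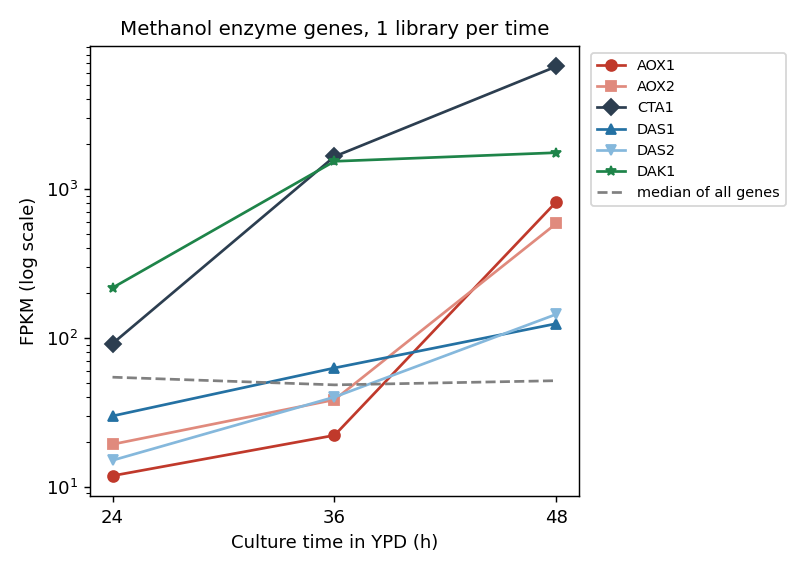
FPKM (log scale) of the 6 methanol enzyme genes against culture time, 1 library per point, with the median of all genes as a dashed line. CTA1 and DAK1 stand at 1535 FPKM or above from 36 h on, and AOX1 and AOX2 are below the median gene until 36 h and at 822 and 588 FPKM at 48 h.

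The alcohol oxidase genes, which act first in the pathway, were low until 36 h and high at 48 h. AOX1 had 11.8 FPKM after 24 h, 22.1 after 36 h and 822 after 48 h. It was the lowest of the 6 genes in the 24 h and 36 h libraries and the third highest at 48 h. The share of all genes with a lower level than AOX1 was 4.84% after 24 h, 23.2% after 36 h and 97.3% after 48 h. Its FPKM at 48 h was 37.2 times that at 36 h and 69.6 times that at 24 h. On the scale of log2(FPKM + 1), used for all differences below, AOX1 differed by 0.85 between 24 and 36 h and by 5.16 between 36 and 48 h, the seventh largest rise of the 5028 genes compared in the later interval. Of the 244 genes at or below AOX1 in the 24 h library, 5 were at or above it at 48 h.

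AOX2 followed the same course from a slightly higher start, with 19.2 FPKM after 24 h, 38.3 after 36 h and 588 after 48 h. Its level at 48 h was 15.3 times that at 36 h. The differences of log2(FPKM + 1) were 0.96 in the first interval and 3.90 in the second, ranks 498 and 19 among the rises of all genes. AOX2 also crossed the median gene between 36 and 48 h, since 41.2% of genes lay below it at 36 h and 96.1% at 48 h.

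The catalase gene had the highest level of the 6 at 36 and 48 h and the largest difference over the whole course. CTA1 had 91.3 FPKM after 24 h, 1654 after 36 h and 6670 after 48 h, where 6 of the 5040 genes stood above it. It was already above the median gene at 24 h, at 1.68 times that level. Its log2(FPKM + 1) differed by 4.16 in the first interval and by 2.01 in the second, so most of the difference on this scale was in place by 36 h, before that of the oxidase genes. CTA1 had 2.94 times the summed level of AOX1 and AOX2 after 24 h, 27.4 times after 36 h and 4.73 times after 48 h. The catalase to oxidase ratio thus stood far higher at 36 h than in either other library.

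The dihydroxyacetone synthase genes, which take up formaldehyde, had the smallest levels of the group at 48 h. DAS1 had 29.8 FPKM after 24 h, 62.7 after 36 h and 124 after 48 h. DAS2 had 15.0 FPKM after 24 h, 39.9 after 36 h and 144 after 48 h. Both ended above the median gene, DAS1 at 2.42 times and DAS2 at 2.80 times its level at 48 h, but far below AOX1 and AOX2. In log2(FPKM + 1), DAS1 differed by 1.05 and 0.98 in the successive intervals, and DAS2 by 1.36 and 1.82. The summed level of the oxidase pair was 0.693 times that of the synthase pair after 24 h, 0.589 times after 36 h and 5.25 times after 48 h. The order of the summed transcript levels of these pairs thus turned between 36 and 48 h.

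The kinase gene was the most abundant of the group at 24 h and nearly level after 36 h. DAK1 had 217 FPKM after 24 h, 1535 after 36 h and 1755 after 48 h. Its log2(FPKM + 1) differed by 2.82 in the first interval and by 0.19 in the second. It held 56.4% of the summed level of the 6 genes after 24 h, 45.8% after 36 h and 17.4% after 48 h. DAK1 had 4.84 times the summed level of DAS1 and DAS2 after 24 h, 15.0 times after 36 h and 6.54 times after 48 h.

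Set against all genes, 4 of the 6 (CTA1, DAK1, DAS2 and DAS1) were higher by the 2-fold rule in the 36 h library than in the 24 h one, beside 9.47% of the 5028 genes with at least 1 FPKM in some library. The 2-fold rule is a difference of at least 1 in log2(FPKM + 1), a rule of size and not a test. None of the 6 was lower by this rule, beside 19.4% of all genes. The median difference of the 6 was 1.20, with a range from 0.85 to 4.16, and that of all genes was -0.21. AOX1 and AOX2 lay just under the rule and DAS1 just over it, so this count depends on the settings. With a 4-fold rule 2 of the 6, CTA1 and DAK1, were higher, beside 2.61% of all genes. With libraries rescaled by the median of ratios or by a trimmed mean all 6 passed, beside 12.9% and 12.2% of all genes, and with a pseudocount of 10 only CTA1 and DAK1 did, beside 7.56%.

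From 36 to 48 h again 4 of the 6 (AOX1, AOX2, CTA1 and DAS2) were higher by the 2-fold rule, beside 13.5% of all genes, and none was lower, beside 13% of all genes. The median difference was 1.92 for the 6, with a range from 0.19 to 5.16, and 0.03 for all genes. With the 4-fold rule 3 of the 6, AOX1, AOX2 and CTA1, were higher, beside 2.82% of all genes. DAS1, at 0.98, passed the rule with trimmed-mean scaling, which gave 5 of the 6 beside 14.3% of all genes.

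Over the whole course all 6 were higher by the 2-fold rule, beside 18.2% of all genes, and none was lower, beside 28% of all genes. All 6 also passed the 4-fold rule, beside 6.78% of all genes. The median difference was 4.02 for the 6 and -0.25 for all genes. The difference was 6.18 for CTA1, 6.01 for AOX1, 4.86 for AOX2, 3.18 for DAS2, 3.01 for DAK1 and 2.03 for DAS1, the last 4.18 times in FPKM. Its 24 h library is that of the first comparison and its 48 h library that of the second, so it is not a further observation of the same differences.

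The genes differed in when their difference arose. In log2(FPKM + 1), the part of the 24 to 48 h difference found in the first interval was 14.2% for AOX1, 19.7% for AOX2, 42.6% for DAS2, 51.7% for DAS1, 67.4% for CTA1 and 93.6% for DAK1. Among the 914 genes of the table that were higher by the 2-fold rule over the whole course, this part had a median of 42.2% and an interquartile range from 21.1% to 67.7%. AOX1 and AOX2 thus lay below the lower quartile and DAK1 above the upper one. CTA1, DAS1 and DAS2 lay within the quartiles. AOX2, at 19.7% beside 21.1%, and CTA1, at 67.4% beside 67.7%, were close to a quartile. These parts were not recomputed under other settings, so the placement of both genes is uncertain. The order along the pathway was not the order in time: DAK1, the last enzyme of the group, was early, and the oxidases, the first enzymes, were late.

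**Figure D2:**
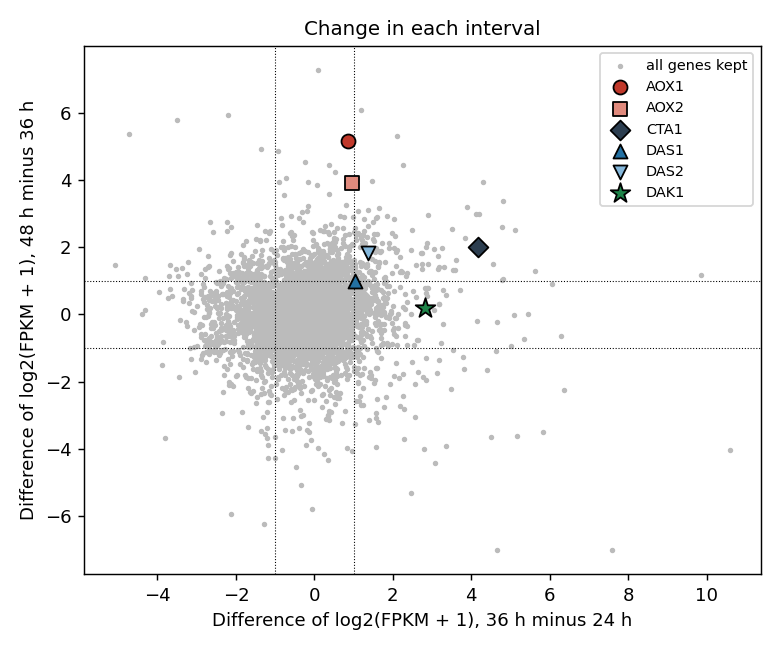
Difference of log2(FPKM + 1) from 24 to 36 h (x axis) and from 36 to 48 h (y axis) for 5028 genes (grey) and the 6 methanol enzyme genes (coloured), with dotted lines at the 2-fold rule. AOX1 and AOX2 stand high on the y axis, with 5.16 and 3.90, DAK1 stands out on the x axis, with 2.82, and CTA1 on both.

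The order of levels within each paralogue pair turned during the culture. The FPKM ratio of AOX1 to AOX2 was 0.614 after 24 h, 0.577 after 36 h and 1.40 after 48 h. The ratio of DAS1 to DAS2 was 1.99 after 24 h, 1.57 after 36 h and 0.864 after 48 h. AOX2 was thus the more abundant oxidase transcript in the first 2 libraries and AOX1 at 48 h, while DAS1 led DAS2 until 36 h and DAS2 stood slightly above it at 48 h. Such ratios are taken within a library and do not depend on its scaling. Each pair consists of close copies, and the sources used here do not say how fragments matching both were counted, so the split within a pair is uncertain. Without replicates it is not known whether the ratio of 0.864, the nearest to 1, differs from it beyond the spread between cultures.

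**Figure D3:**
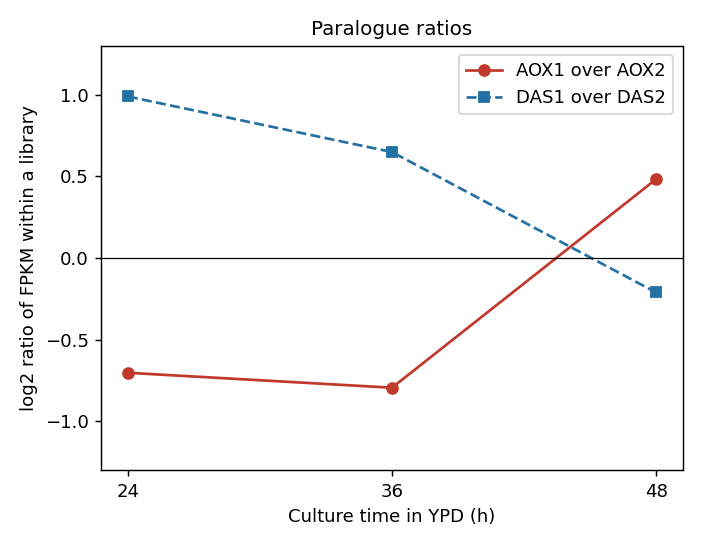
The log2 ratio of FPKM of AOX1 over AOX2 and of DAS1 over DAS2 within each library, against culture time, 1 library per point. The AOX ratio is below 0 until 36 h and 0.48 at 48 h, and the DAS ratio goes from 0.99 at 24 h to -0.21 at 48 h.

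Among the pairs compared here, the 2 oxidase genes had the fewest outside genes nearer to either than its partner was. Likeness was measured as the Euclidean distance between profiles of log2(FPKM + 1) over the 3 libraries, each centred on its own mean, among 4954 genes with at least 10 FPKM in some library. AOX1 and AOX2 were 0.98 apart, with 4 genes outside the group nearer to AOX1 than AOX2 was, and 21 nearer to AOX2 than AOX1 was. DAS1 and DAS2 were 0.84 apart, but 698 genes outside the group were nearer to DAS1 than DAS2 was, and 192 nearer to DAS2 than DAS1 was. By distance the synthase pair was thus the closer. The number of nearer genes also depends on how many genes have differences of that size. From 24 to 48 h AOX1 and AOX2 ranked 20 and 37 among the rises, and DAS1 and DAS2 332 and 134. CTA1 and DAK1 were 2.24 apart, with 94 outside genes nearer to CTA1 than DAK1 was and 1512 nearer to DAK1 than CTA1 was. The gene nearest to the mean profile of the 6 was PAS_chr1-4_0369, at a distance of 0.15, with 64.3 FPKM after 24 h, 257 after 36 h and 1394 after 48 h. The files give this tag no name or function, and with 3 libraries a near profile is a description only.

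DAS1, DAS2 and DAK1 have tag numbers within 9 of each other, so the genes numbered around them were also examined. Between DAS1 and DAK1 the table holds 6 other genes, of which 2 were higher by the 2-fold rule over the whole course, 1 was lower and 3 were within 2-fold. That is 33.3% higher and 16.7% lower in this stretch, beside 18.2% and 28% of all genes, and with so few genes it is a description only. The largest rise there was that of PAS_chr3_0836, next in the table after DAS2, with 6.83 FPKM after 24 h, 153 after 36 h and 2356 after 48 h. Its difference of 8.23 was the second largest rise of all 5028 genes and exceeded that of each of the 6 enzymes. The gene numbered between DAS1 and DAS2, picked out after its values were seen, had 29.9, 55.0 and 118 FPKM, close to DAS1 in every library. Whether that gene and DAS1 share fragments was not tested. The lower gene was PAS_chr3_0839, with 413 FPKM after 24 h, 179 after 36 h and 120 after 48 h, a difference of -1.78.

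**Figure D4:**
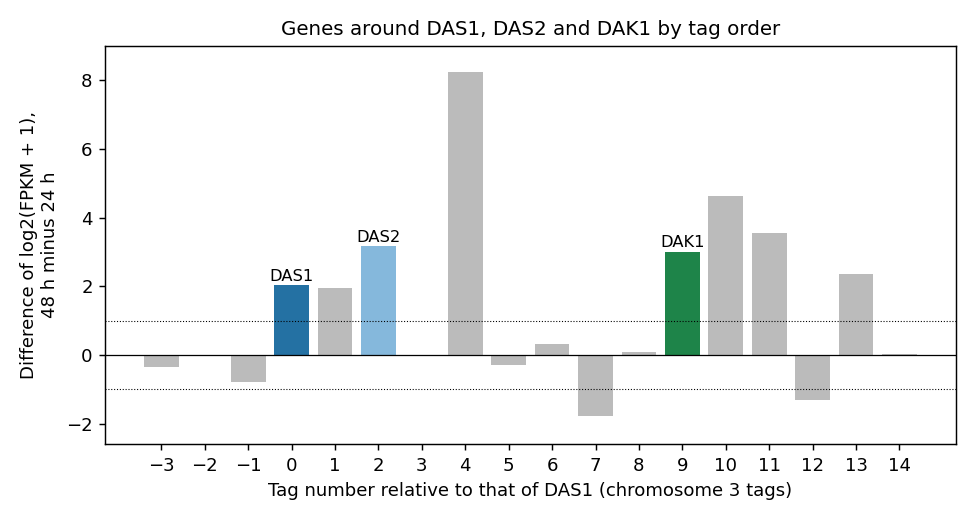
Difference of log2(FPKM + 1), 48 h minus 24 h, for genes of chromosome 3 by tag number relative to DAS1, with members coloured, other genes grey and dotted lines at the 2-fold rule. Numbers without a bar have no gene compared here, except where the bar is near 0. The highest bar, 8.23, is 4 tags after DAS1, and bars of genes between it and DAK1 lie between -1.78 and 0.31.

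Higher genes were thus interspersed with genes that were level or lower. Counting all genes within 5 tag numbers of any of the 6 enzymes, 41 genes, 11 were higher by the 2-fold rule over the whole course and 11 lower. These are 26.8% in each direction, beside 18.2% higher and 28% lower among all genes. Around AOX1 it was 2 higher and 4 lower of 8 genes, around AOX2 3 and 3 of 10, and around CTA1 1 and 2 of 10. On chromosome 3, where the windows overlap, it was 2 and 0 of 5 around DAS1, 2 and 1 of 7 around DAS2, and 4 and 2 of 10 around DAK1. The nearest genes by number on either side of AOX1 differed by -0.06 and -1.21 where AOX1 itself differed by 6.01.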

How the data were processed

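Messenger RNA of yeast cells was sequenced in 3 libraries, 1 per time point. CASAVA and the aligner HISAT2 2.1.0 are named in the submitters' processing notes. The counting program, strandedness, genome build and annotation were not given in the sources used here. As values the authors deposited 1 FPKM value per gene and library, per the file headers, so the depth is unknown and counting error cannot be stated. FPKM depends on all other genes of a library: total FPKM was 871921 after 24 h, 785727 after 36 h and 760684 after 48 h.

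Columns were matched to times by the codes in the sample titles. Differences were taken of log2(FPKM + 1), which understates changes of low genes, for the 5028 genes that reached 1 FPKM in any library. All 6 enzyme genes passed. Genes different by 2-fold or more were counted without a test. Alternatives were pseudocounts of 0.1 and 10, no filter or 10 FPKM, median-of-ratios or trimmed-mean scaling (30% of ratios and 5% of levels trimmed on each side) and a 4-fold rule. The counting was checked on simulated data, after either rescaling and with planted 4-fold changes. That check therefore says nothing of genes near the 2-fold rule or of values left unscaled. The members and lists were chosen with earlier results of these data known. Beyond the 6 enzymes, the rule for named genes allowed the nearest profile and the largest rise and fall between DAS1 and DAK1. A list of 19 other pathway genes, by symbol, gave 0 members. The reason is that the 5305 genes of the reference table share 0 tags with the deposited table. That reference is of the species Komagataella pastoris and of a strain other than GS115. Python 3.11.15, numpy 2.4.6, pandas 2.3.3 and matplotlib 3.10.9 were used.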

Additional observations from a re-analysis of the deposited data

How the results depend on the processing

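Of 108 recomputed differences of the 6 genes, 0 changed sign. Only the median-of-ratios and trimmed-mean scalings could have changed one, because pseudocounts and filters keep the order of a gene's levels. The 12 recomputed paralogue ratios varied the pseudocount alone, which cannot turn a ratio. Their 0 reversals were therefore fixed in advance and say nothing about the order within a pair. Of 42 recomputed counts, 40 were within 1.5 times the reported one, a band that takes 6 in place of 4 as within. Many of these could hardly move: counts of lower genes were 0 under every setting, and all 6 genes passed both filter settings. The 2 exceptions were counts of the genes higher by 36 h, which were 2 in place of 4 with a pseudocount of 10 and 2 with the 4-fold rule. Both settings are stricter by construction for low genes or for all genes. AOX1 ranged from 0.56 to 1.07 and AOX2 from 0.73 to 1.19 in that interval over pseudocounts, filters and scalings, across the 2-fold rule. Median-of-ratios scaling moved the median of all genes from -0.21 to 0.02 for 36 h against 24 h and from -0.25 to -0.03 for 48 h against 24 h. Relative to the median gene as deposited, AOX1 differed by 1.06 and AOX2 by 1.17 between 24 and 36 h. No replicate could be left out. No paired analysis was possible because the 3 groups hold 1 library each. The lack of replicates and the unknown depth limit every value.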

Other observations

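Some unnamed genes beside the enzyme genes were picked out after their values were seen. The 2 genes numbered after DAK1 were highest at 36 h. The first of them had 24.0 FPKM after 24 h, 1019 after 36 h and 619 after 48 h, and the next 10.8, 294 and 136 FPKM, where DAK1 itself was nearly level between 36 and 48 h. The gene numbered just before AOX2 had 88.6 FPKM after 24 h, 754 after 36 h and 34.0 after 48 h, so its high library was the one in which AOX2 was still at 38.3 FPKM. The gene numbered 5 before AOX2 had 200.5, 1497 and 4198 FPKM, where CTA1 had 91.3, 1654 and 6670 FPKM.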
